A study of Mus musculus with 6 samples.

Results

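Broad accessible intervals that carry several summits were examined in sorted mouse urothelial cells with or without Stag2. An ATAC-seq peak list reports each accessible interval with the position of its summit, the point where transposase insertions pile up highest, and an interval with several summits occupies several lines of the list. An interval listed with 3 or more summits was called a multi-summit interval. These intervals were merged over the 6 lists wherever they shared at least 1 bp, which gave 15345 regions. The 6738 regions with a multi-summit interval in at least 3 of the 6 lists are the members described here, out of 335207 merged accessible regions in all. Members were thus chosen by the summit numbers of all 6 libraries, without regard to genotype, so their width and summit number against other regions are given as a description, with no test.

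The cells came from peeled urothelium, the epithelium that lines the bladder, after sorting for GFP+ and DAPI- cells. Groups were Stag2-WT and Stag2-KO mice, with 3 libraries each, all mice having been fed TMX and all cells collected 1 week after TMX induction. Each library is named as a biological replicate, 50000 cells were used per condition, and all 6 libraries are in batch 1 according to the labels. The allele, the driver of the deletion and the number of animals per library are not given in the labels, and all tests here rest on the variation among those 6 libraries, which may be technical. Accessibility gives no check of the deletion itself. In bulk samples of this kind, a different share of cells and a different accessibility per cell cannot be told apart.

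The Stag2 protein belongs to cohesin, a ring-shaped complex that tethers replicated chromatids and forms chromatin loops, many of which are anchored where CTCF is bound. Open promoters lack nucleosomes just upstream of the transcription start, and their flanking nucleosomes are regularly placed, so insertions pile up in the linkers between nucleosomes and give separate summits. Most promoters of widely expressed mouse genes are CpG islands, stretches rich in CpG dinucleotides and in GC boxes, the sites of Sp1-type factors, while the CCAAT box is the site of the factor NF-Y.

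Members were largely promoter regions, and the sequence before the start shows what kind of promoter they hold. The 250 bases before the transcription start are printed 5′ to 3′ on the gene's strand for 5 members on which results below turn, from RefSeq on build GRCm38.p6. Gas1 (chr13:60177536-60177785, minus strand) and Dipk2a (chr9:94538082-94538331, minus strand) lie in members with among the most summits. Pparg (chr6:115360894-115361143, plus strand) encodes a urothelial transcription factor. Smim11 (chr16:92301053-92301302, plus strand) lies in a member that was wide in WT, and Atp1b3 (chr9:96363716-96363965, minus strand) in a member whose summit spacing differed. Pparg and Atp1b3 each have 2 RefSeq promoter entries in their member, and only the entry of lowest coordinate is printed and counted below. Capitals mark GC boxes (GGGCGG or its complement CCGCCC) and CCAAT boxes (CCAAT or ATTGG).
Gas1: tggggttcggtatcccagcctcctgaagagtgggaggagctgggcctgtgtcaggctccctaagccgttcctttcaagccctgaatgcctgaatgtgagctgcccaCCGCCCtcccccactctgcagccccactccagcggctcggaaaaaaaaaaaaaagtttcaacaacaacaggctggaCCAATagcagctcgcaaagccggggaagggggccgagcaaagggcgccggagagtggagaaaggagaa
Dipk2a: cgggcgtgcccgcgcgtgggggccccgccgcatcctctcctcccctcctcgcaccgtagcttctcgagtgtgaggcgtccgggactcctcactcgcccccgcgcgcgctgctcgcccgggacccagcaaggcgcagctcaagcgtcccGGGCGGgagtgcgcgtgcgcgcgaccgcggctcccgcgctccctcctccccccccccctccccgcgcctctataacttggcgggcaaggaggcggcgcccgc
Pparg: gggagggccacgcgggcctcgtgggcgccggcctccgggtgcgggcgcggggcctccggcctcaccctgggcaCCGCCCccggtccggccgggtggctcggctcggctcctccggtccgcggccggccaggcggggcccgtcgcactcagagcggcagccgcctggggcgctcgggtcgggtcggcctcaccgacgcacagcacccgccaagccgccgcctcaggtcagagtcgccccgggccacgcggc
Smim11: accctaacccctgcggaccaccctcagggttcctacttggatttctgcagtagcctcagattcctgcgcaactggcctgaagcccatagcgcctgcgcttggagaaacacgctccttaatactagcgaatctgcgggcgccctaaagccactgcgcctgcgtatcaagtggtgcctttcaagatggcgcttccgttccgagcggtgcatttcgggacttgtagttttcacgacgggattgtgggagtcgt
Atp1b3: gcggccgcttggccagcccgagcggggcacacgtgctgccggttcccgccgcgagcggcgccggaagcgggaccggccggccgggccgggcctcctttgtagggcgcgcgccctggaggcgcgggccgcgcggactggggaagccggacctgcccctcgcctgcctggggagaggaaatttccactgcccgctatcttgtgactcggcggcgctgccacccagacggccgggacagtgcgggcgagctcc
The stretch before Gas1 held 1 GC box, 1 CCAAT box and 10 CpG in 250 bases. Those before Dipk2a and Pparg held 1 GC box, no CCAAT box and 38 CpG each. Smim11 with 18 CpG and Atp1b3 with 35 CpG held neither motif. The observed to expected CpG ratio was 0.46 at Gas1 and between 0.90 and 1.05 at the other 4. A motif match describes these letters and not a bound site.

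The same features were counted in all RefSeq promoters, taken from 250 bases before to 50 bases after the start. Of 21263 promoters of 17492 genes, 4707 promoters of 4082 genes had their start inside a member. Their median observed to expected CpG ratio was 0.82, against 0.73 for the 7663 promoters that start inside another region accessible in all 6 libraries and 0.21 for the 8893 remaining promoters. A ratio of at least 0.6 was found in 83.7% of promoters in members, 68.3% of those in other accessible regions and 47.7% of all promoters. A GC box on either strand was present in 74.1% of promoters in members, 62.5% of those in other accessible regions and 46.2% of all. CCAAT boxes ran the other way, with 33.3%, 41.2% and 38.2%. The TATA box (TATAAA) was present in 4.99% of promoters in members, 6.94% of the other accessible ones and 12.6% of all. The AP-1 site (TGANTCA) was held by 3.74%, 6.51% and 6.99% and the ETS site (CCGGAAGT) by 7.95%, 8.48% and 5.15%. The cell cycle element CHR (TTTGAA) was held by 9.39%, 11.7% and 16.0%. Motifs were searched separately, so matches may overlap. Promoters in members thus held more CpG and GC boxes, and fewer TATA boxes and AP-1 sites, than promoters in other accessible regions.

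The 6 lists held between 181987 and 299636 peaks. Background coverage was worked out from fold and p of a sample of 831 to 1157 peaks per list. The lowest value in a list averaged 6.95 ± 0.614 reads in WT and 6.92 ± 1.04 reads in KO (n = 3 each, ± SD, exact permutation test, two-sided p = 0.9). The libraries of the genotypes overlapped in it. The list of KO replicate 1 started at a −log10 p of 3.00 and the others at 2.00, so summits and widths below were all taken from peaks at or above 3. KO replicate 3 stood apart from the other KO libraries: leaving it out raised the regions called on rank from 55 to 17936 (limma, adjusted p below 0.05). Results are therefore given without it as well. The libraries also divided across genotypes. The median best fold of members was 14.7 in WT replicate 2, 13.1 in KO replicate 1 and 16.4 in KO replicate 2. It was 10.1 in WT replicate 1, 11.3 in WT replicate 3 and 11.5 in KO replicate 3. Leaving out KO replicate 3 thus keeps the KO libraries that lie with WT replicate 2, and the part of this division in the results was not tested. In each library, 10 of 12 urothelial markers had 1 of the 100000 best intervals at a gene end. Trp63 had none in any library, Krt5 none in WT replicate 1 and Gata3 none in the other 5. Fibroblast markers had one for 5, 3 and 3 of 6 genes in WT and 4, 4 and 2 in KO, smooth muscle markers for 3, 3 and 2 of 5 in WT and 4, 3 and 3 in KO, and endothelial markers for 1, 1 and 0 of 5 in WT and 2, 1 and 0 in KO. Lum, Pecam1 and Emcn had none in any library. Immune markers had one for 2, 2 and 2 of 6 genes in WT and 3, 4 and 3 in KO, without overlap, with none at Ptprc in any library, and the part of these cells in the results was not tested.

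The members spanned 562 to 2753 bp, with a median of 1186 bp and quartiles at 1004 and 1402 bp. Their mean summit number over the 6 libraries ranged from 1.67 to 8.83 with a median of 3.17, and 346 members had a mean of 5 or more. Of the members, 2236 (33.2%) were multi-summit in all 6 lists, 1262 in 5, 1427 in 4 and 1813 in 3. A further 2531 regions with a multi-summit interval in 2 lists and 6076 with 1 in a single list are not members. Nearly all members, 6706, had an interval at or above the common threshold in every library, and 32 did not. Members were scattered over the genome, with a median of 124462.5 bp to the next member, and 309 neighbouring pairs (4.60%) lay under 10000 bp apart. They made up 11.9 ± 0.229% of the accessible base pairs in WT and 11.5 ± 2.31% in KO (SD, n = 3 each).

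The threshold of 3 lists was not a sharp boundary. The rule read the lists as deposited, while the summit numbers given here are those at or above the common −log10 p of 3. Among the members just inside it with the fewest summits, the region at one end of Crebbp, the gene of a histone acetyltransferase (chr16:4214060-4214802), had 2, 1 and 2 summits in WT and 1, 1 and 3 in KO. Regions in Snx29 (chr16:11603556-11604291) and on chromosome 4 (chr4:95160935-95161952) had 3, 2 and 3 summits in WT and 1 in each KO library. Just outside, among regions with a multi-summit interval in 2 lists and the most summits, the region at Kcnk13, a potassium channel gene (chr12:99964319-99966212), had 7, 5 and 7 summits in WT and 5, 4 and 5 in KO. Camk2n2 (chr16:20621145-20622770) had 5 summits in all 6 libraries, and Crim1 (chr17:78199713-78201669) had 5, 5 and 6 in WT and 4, 5 and 4 in KO. A region can hold many summits and miss the rule when they belong to separate intervals.

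Of the members, 4375 (64.9%, Wilson 95% interval 63.8% to 66.1%) overlapped a window of 500 bp around either end of a protein-coding gene, 1594 (23.7%) lay in gene bodies and 769 (11.4%) were intergenic. Among the 92281 other regions with an interval in all 6 libraries, 9903 (10.7%, 10.5% to 10.9%) overlapped such a window. Strong regions overlap gene ends more often, so the share was also read within bands of mean rank, where rank 1 is the interval of best p. Ahead of rank 10000 it was 79.0% in members and 37.8% in other regions. From there to rank 20000 it was 71.2% against 19.1%, up to rank 40000 it was 62.7% against 10.9%, and up to rank 70000 it was 53.7% against 7.16%. The share was 75.04% in the members that were multi-summit in all 6 lists. A RefSeq transcription start lay inside 3729 members (55.3%), and for 379 of these (10.2%) the starts were on both strands, against 361 of 6644 other regions with a start (5.43%). Members were also wider than other regions, and a wider region meets a window or a start more easily. These shares were not read at equal width.

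Members were narrower, held fewer summits and had wider spaced summits in all 3 KO libraries than in any WT library. The median covered width, in bp of the member covered by intervals of that library, was 1072.5, 1087 and 1067 in WT and 1025, 1039 and 1032.5 in KO. The mean of the 3 libraries with its SD was 1075.5 ± 10.3 bp for WT and 1032.2 ± 7.01 bp for KO, a difference of −4.03%. The groups did not overlap, and the exact permutation test gave a two-sided p of 0.1, the smallest that 3 libraries against 3 allow, so no such difference can pass a threshold of 0.05 here.

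Summits per member averaged 3.398, 3.495 and 3.504 in the WT libraries. In the KO libraries they averaged 3.15, 3.18 and 3.31. The difference was −0.25 summits or −7.24% (exact permutation test, p = 0.1). The difference in summit number came to −0.10, with overlapping libraries (exact permutation test, p = 0.2), when each list was cut to its 150000 best peaks.

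The distance between neighbouring summits of an interval had a median of 269, 271 and 265 bp in WT and 284, 278 and 272 bp in KO. KO replicate 3, at 272 bp, lay 1 bp above the highest WT library, so the groups only just failed to overlap. The difference was 9.67 bp or 3.60% (exact permutation test, p = 0.1). The 6 lists also held different numbers of multi-summit intervals, 7837, 7516 and 7711 in WT and 6235, 6250 and 5734 in KO. As a share of distinct intervals this was 4.61 ± 0.241% in WT and 3.32 ± 0.920% in KO (n = 3 each, ± SD, exact permutation test, p = 0.1), a difference of −1.29 percentage points that was −0.83 without KO replicate 1.

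Without KO replicate 3, the differences were −43.5 bp in width, −0.30 summits, 12.7 bp in spacing and −1.30 percentage points in the share of multi-summit intervals. Each had an exact permutation p of 0.2, the smallest that 3 against 2 allow. The values were likewise on the same side in the 2236 members that were multi-summit in every list. These members needed 3 or more summits in each list of both genotypes, so they too were chosen by summit number. Their width was 1212 and 1163 bp in WT and KO, their summit number 3.97 and 3.75, and their spacing 268.3 and 277.3 bp (exact permutation test, p = 0.1 each). Without the 146 members on the X chromosome, the width difference was −44.0 bp and the summit difference −0.26.

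**Figure D1:**
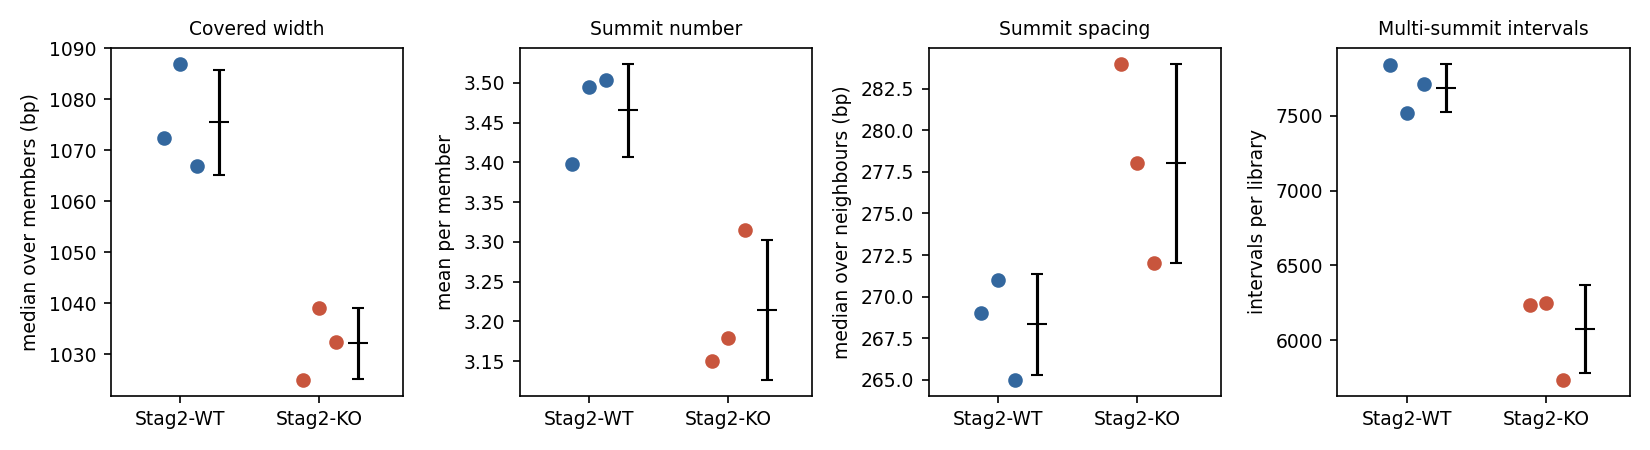
Median covered width of members (bp), mean summits per member, median spacing of neighbouring summits (bp) and number of multi-summit intervals in each library, with points for the 3 Stag2-WT and 3 Stag2-KO libraries and bars for the mean ± SD; the axes do not start at 0. The KO points lie below the WT points in width, summit number and interval number, and above them in spacing, where 272 bp in KO replicate 3 is next to 271 bp in WT replicate 2.

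The list composition of the members leaned the same way. Multi-summit intervals in all 3 WT lists and no KO list made 345 members, and the reverse made 51. Of the members in exactly 3 lists, 821 had 2 WT and 1 KO list and 596 had 1 WT and 2 KO lists. These counts follow from the larger number of multi-summit intervals in the WT lists and are no separate evidence.

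Other accessible regions were also narrower in KO. The 92281 other regions had a median width of 385, 378 and 383 bp in WT and 340, 341 and 356 bp in KO, a difference of −9.51% (exact permutation test, p = 0.1). Relative to them, members were thus wider in KO: the median log2 width of members minus that of other regions was 1.49 in WT and 1.58 in KO, a difference of 0.08 (exact permutation test, p = 0.1) and 0.10 without KO replicate 3. Their spacing averaged 271.7 bp in WT and 267.7 bp in KO (exact permutation test, p = 0.2), on the other side from members. Their mean summit number was 1.27 in WT and 1.25 in KO, a difference of −2.14%. Regions of the same rank as the middle of the members, 26921 in number, differed by −9.03% in width, −2.50% in summit number and −0.82% in spacing.

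Values of the other regions differed with their place. The 9903 other regions at gene ends were 628.7 bp wide in WT and 600.7 bp wide in KO, a difference of −4.45%, and 1.67 and 1.58 summits, a difference of −5.39% (exact permutation test, p = 0.1 each). Their spacing was 283.2 and 293.0 bp, a difference of 3.47% (exact permutation test, p = 0.2), so in all 3 readouts they lay on the same side as members and by a like amount. Other regions in gene bodies and between genes had summit differences of −1.65% and −1.56% and spacing differences of −2.24% and −3.15%. The contrast between members and other regions is therefore also one between gene ends and the rest, and what is particular to members was not tested.

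In width and summit number, members at gene ends, in gene bodies and between genes lay on the same sides. The 4375 gene-end members had 3.58 ± 0.053 summits in WT and 3.30 ± 0.104 in KO, and a width of 1117 and 1078 bp (n = 3 each, ± SD, exact permutation test, p = 0.1 each). The 1594 members in gene bodies had 3.31 and 3.11 summits and a width of 1013.5 and 968.8 bp. The 769 intergenic members had 3.13 and 2.96 summits and a width of 951.7 and 900.7 bp. The summit difference was −7.87% at gene ends, −6.22% in gene bodies and −5.37% between genes, while the width difference was −3.52%, −4.41% and −5.36%. Spacing was 268.0 and 280.3 bp at gene ends, without overlap (exact permutation test, p = 0.1). In gene bodies it was 269, 268 and 264 bp in WT and 278, 273 and 269 bp in KO, and between genes 273, 275 and 273 bp in WT and 282, 276 and 275 bp in KO. Both of these overlapped or touched (exact permutation test, p = 0.2 each). Differences between these classes were not tested.

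**Figure D2:**
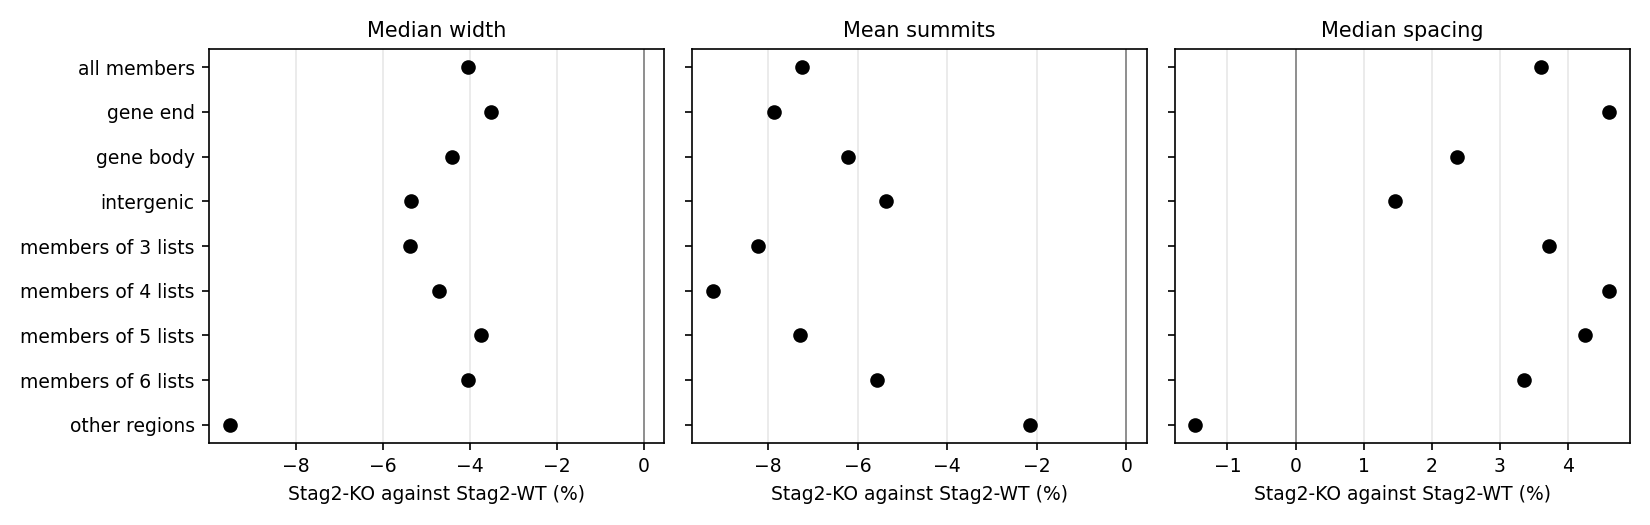
Difference of the Stag2-KO mean from the Stag2-WT mean (%) in median width, mean summits and median spacing, each point being the mean of 3 libraries against that of 3 for all members, members by place, members by number of lists and the other regions. All member classes lie below 0 for width and summits and above 0 for spacing; the other regions lie at −9.51%, −2.14% and −1.47%.

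The place of the difference along the gene was read in the 3350 members with transcription starts on a single strand. Members reached farther into the gene than before it. In WT they covered 418, 402 and 405 bp upstream of the start and 697.5, 714 and 696 bp downstream. In KO they covered 369, 372 and 389 bp upstream and 684, 689 and 677.5 bp downstream. Both differences, −31.7 bp upstream and −19.0 bp downstream, separated the libraries (exact permutation test, p = 0.1 each), although KO replicate 3 lay closest to WT upstream. Summits upstream numbered 1.36 ± 0.037 per member in WT and 1.21 ± 0.081 in KO, and summits downstream 2.21 ± 0.051 and 2.07 ± 0.037 (n = 3 each, ± SD, exact permutation test, p = 0.1 each).

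Summits recurred at fixed places around the start. The 50 bp before the start held 27.2, 27.2 and 27.97 summits per 100 members in WT and 24.5, 26.3 and 27.1 in KO. Between 100 and 150 bp after the start this dropped to 5.97, 7.07 and 6.21 in WT and 6.87, 6.09 and 6.60 in KO. It came back between 200 and 250 bp after the start, to 21.8, 22.6 and 23.1 in WT and 18.1, 21.6 and 20.4 in KO. Upstream, the bin from 300 to 250 bp before the start held 12.6, 11.5 and 13.3 in WT and 9.19, 8.93 and 11.9 in KO, where KO replicate 3 overlapped the WT libraries. As a share of all summits, the stretch from 150 bp before to 50 bp after the start held 21.7 ± 0.098% in WT and 23.2 ± 0.687% in KO (n = 3 each, ± SD, exact permutation test, p = 0.1). The share beyond 250 bp downstream was 41.8% and 41.5% (exact permutation test, p = 0.5).

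**Figure D3:**
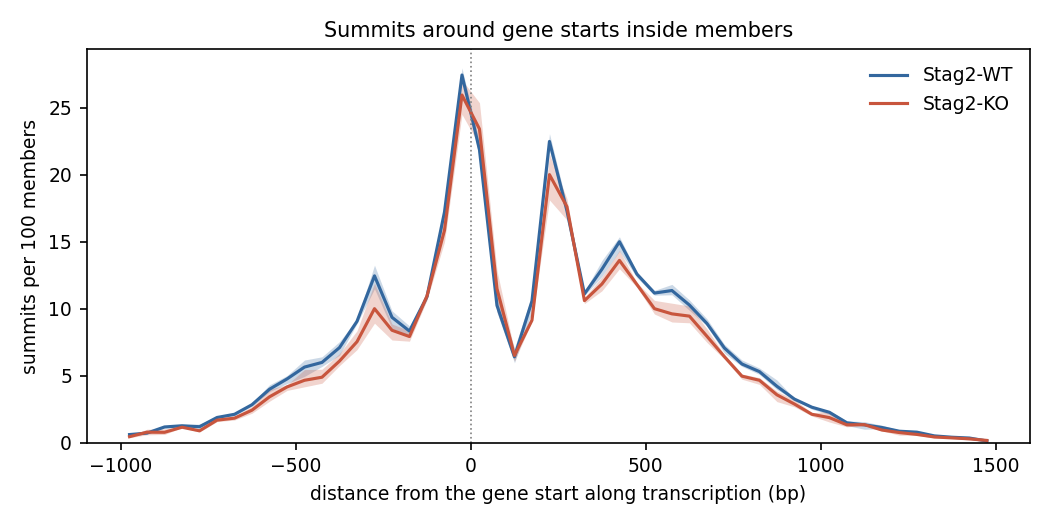
Summits per 100 members in bins of 50 bp against the distance from the transcription start along the gene (bp), for 3350 members; lines are the mean of 3 libraries of each genotype and bands their lowest and highest library. Peaks stand just before the start and 200 to 250 bp after it, with a trough at 100 to 150 bp, and the KO line lies below the WT line on most of both flanks.

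The spacing of summits had the same most frequent bin, 225 to 250 bp, in all 6 libraries. Quartiles were 225.7 bp and 343.7 bp in WT and 230.3 bp and 359.7 bp in KO, the lower with an exact permutation p of 0.1 and the upper of 0.2. Distances of 150 to 300 bp made 61.1%, 59.9% and 63.4% of all distances in WT and 53.9%, 57.0% and 60.0% in KO, where KO replicate 3 overlapped WT replicate 2 (exact permutation test, p = 0.2). Distances of 400 bp or more made 15.2%, 15.6% and 13.6% in WT and 18.9%, 17.8% and 15.5% in KO (exact permutation test, p = 0.2). At most 1.93% of distances were shorter than 150 bp in every library.

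**Figure D4:**
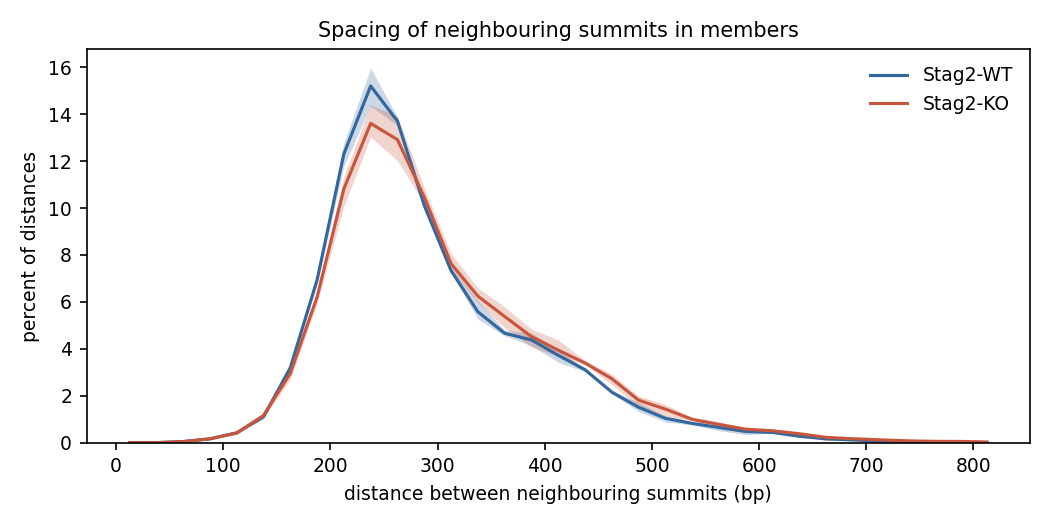
Share of the distances between neighbouring summits of a member (%) in bins of 25 bp against the distance (bp), with lines for the mean of the 3 libraries of each genotype and bands for their range. The highest bin is 225 to 250 bp in both genotypes, and the KO line lies below the WT line there and above it from about 300 to 500 bp.

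Summit positions were largely shared between libraries. Of the member summits of a library, 83.8% lay within 50 bp of a summit of another library of the same genotype (12 ordered pairs, 78.2% to 88.5%) and 81.0% within 50 bp of a summit of a library of the other genotype (18 ordered pairs, 71.2% to 90.2%). Grouped over the libraries, the members held 23727 summit positions, of which 15213 (64.1%) had a summit in all 6 libraries. A position had a summit in all 3 WT and no KO library in 413 cases, and in all 3 KO and no WT library in 86, which is 1.74% and 0.362% of positions, against 0.746% and 0.358% of the positions in other regions. Inner positions of other regions had 3.38% and 1.49%, above the 1.54% and 0.397% of inner member positions. Members were chosen by summit number, 345 of them through WT lists alone and 51 through KO lists alone, so these shares are a description. Of all positions, 87.4%, 94.2% and 91.3% were present in WT libraries and 83.9%, 85.5% and 88.9% in KO libraries, which overlapped (exact permutation test, p = 0.2). Inner positions, with a neighbour on both sides, were present in 90.6 ± 3.36% in WT and 86.5 ± 2.35% in KO, and outermost positions in 91.1 ± 3.55% and 85.5 ± 3.11% (n = 3 each, ± SD, exact permutation test, p = 0.3 and 0.2).

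The strongest summit of a member with 3 or more summits, by the authors' fold over background, was an inner summit in 46.1 ± 0.669% of WT cases and 43.7 ± 0.611% of KO cases (n = 3 each, ± SD, exact permutation test, p = 0.1). If all places were equally likely it would be 42.8% in WT and 41.2% in KO, a value set by the summit numbers alone. The next strongest summit had a median of 0.63 of the strongest summit's fold in WT and 0.62 in KO, and the weakest 0.30 and 0.28.

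Region by region, no member passed the test for width. Over 98987 regions, 1 was called (0.00101%, limma, adjusted p below 0.05), and it was not among the 6706 members tested, whose lowest adjusted p was 0.0626. At an unadjusted limma p below 0.05, 982 members were narrower in KO and 83 wider. That is 14.6% and 1.24% of members, near the 13.1% and 1.65% of all tested regions. All KO libraries lay below all WT libraries in width in 1477 members (22.0%, against 19.9% of all regions) and above them in 147 (2.19%, against 2.76%). Without KO replicate 3, 257 of 6707 members were called narrower and 6 wider, against 2198 and 170 of 101040 regions.

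Near Tomm7, a gene of the mitochondrial protein import machinery, an intergenic member 6135 bp from the gene (chr5:23850280-23851501) covered 1222, 1184 and 1186 bp in WT and 654, 694 and 703 bp in KO. It held 4, 3 and 3 summits in WT and 1, 1 and 2 in KO, and the log2 width difference was −0.81 ± 0.05 (SE, n = 3 each, limma, adjusted p = 0.0626). The groups did not overlap in width or summits.

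At Smim11, a gene of a small membrane protein whose upstream sequence is printed above, the member (chr16:92300733-92302007) covered 1236, 1214 and 1270 bp in WT and 720, 665 and 740 bp in KO. Summits numbered 3, 4 and 4 in WT and 1, 1 and 2 in KO. The log2 difference was −0.81 ± 0.06 (SE, limma, adjusted p = 0.0626), while its rank was 15212, 16186 and 18692 in WT and 17050, 14671 and 19890 in KO, which overlapped. A member inside Cachd1 (chr4:100885908-100886938) covered 1031, 975 and 899 bp in WT and 529, 534 and 556 bp in KO, with 4 summits in each WT and 1 in each KO library (limma, adjusted p = 0.0665 for width). These 3 members were multi-summit in 3 lists and had 3 or more summits only in WT libraries, so they met the rule through the genotype in which they were wider. Without KO replicate 3, the width differences near Tomm7, at Smim11 and in Cachd1 passed the limma test, with adjusted p of 0.0295, 0.0295 and 0.0305. Without any other library none of them passed, with adjusted p of 0.112 to 0.296 (limma), and with the replicate block it was 0.316.

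Wider in KO was the member at Npnt, the gene of nephronectin, a matrix ligand of integrins (chr3:132949318-132950535), with 944, 969 and 959 bp in WT and 1138, 1194 and 1206 bp in KO. Its log2 difference was 0.30 ± 0.04 (SE, n = 3 each, limma, adjusted p = 0.103), and its summits numbered 4, 3 and 3 in WT and 3, 3 and 4 in KO. An intergenic member on chromosome 13 (chr13:37525191-37526494) covered 930, 939 and 943 bp in WT and 1289, 1163 and 1177 bp in KO (adjusted p = 0.107, limma). The member at Gm51464 (chr7:48137161-48138696) covered 972, 1021 and 986 bp in WT and 1203, 1131 and 1195 bp in KO (adjusted p = 0.160, limma). In all of them the groups did not overlap, and none passed the test.

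**Figure D5:**
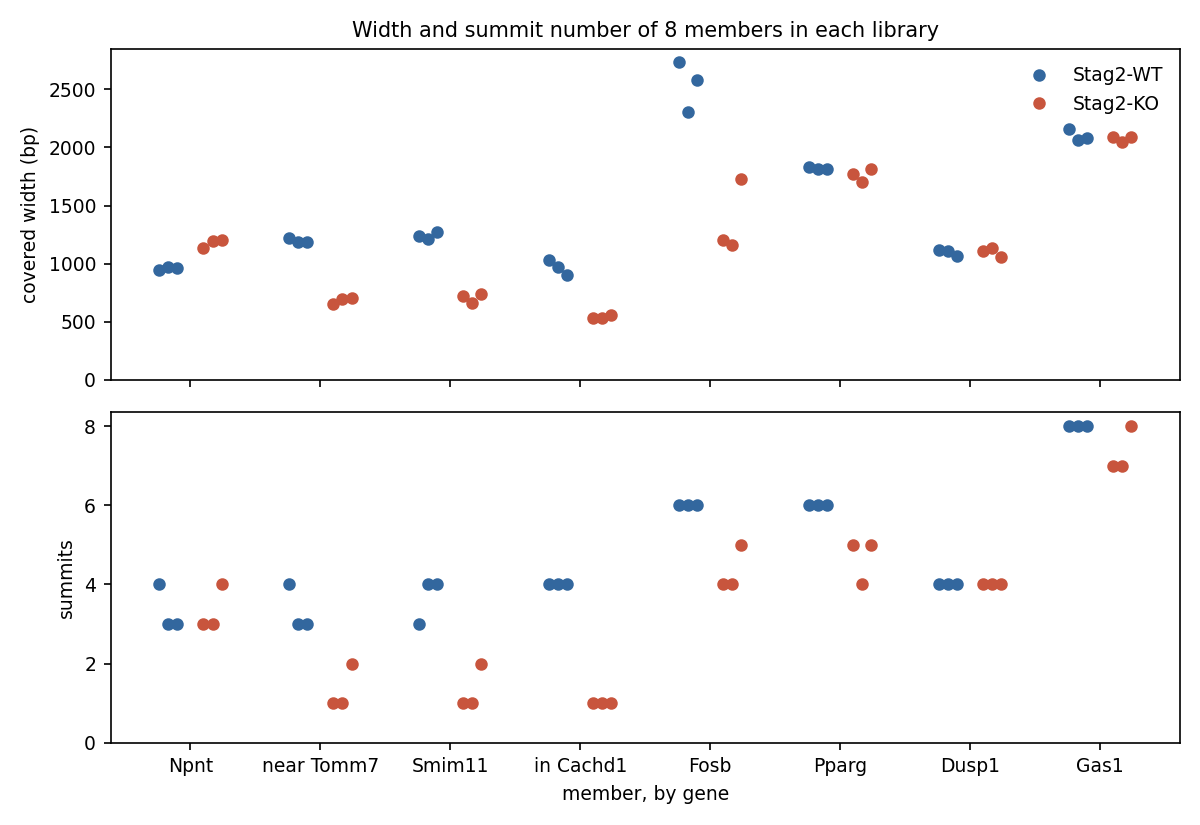
Covered width (bp, upper panel) and number of summits (lower panel) of 8 members in each of the 3 Stag2-WT and 3 Stag2-KO libraries, 1 point per library. The members near Tomm7, at Smim11 and in Cachd1 are narrower in KO, the member at Npnt is wider, that at Fosb is narrower with overlap in neither panel, and those at Dusp1 and Gas1 overlap in width.

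Summit number takes a few whole values, so no single region is called on it, and members are counted by whether their libraries overlap. In 362 of 6705 members (5.40%), every KO library had fewer summits than every WT library, and in 37 (0.552%) every KO library had more. The shares over all tested regions were 1.03% and 0.279%, but most of these have 1 summit and little room to differ. Members were also chosen by summit number, and a region with 3 summits in each WT library and fewer in KO is a member through the WT lists alone. These counts are therefore a description, and nothing is read from their distance to the shares over all regions. By place, fewer summits in KO were found in 241 of 4359 gene-end members, 80 of 1580 in gene bodies and 41 of 766 between genes, and more summits in 23, 6 and 8. Without KO replicate 3, fewer summits were found in 975 members (14.5%, against 2.89% of all tested regions) and more in 123 (1.83%, against 1.63%).

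The members of smallest p in the fit of summit number that could not be used are given as examples. That fit picks regions with equal numbers within a genotype, and all of these were multi-summit in 3 lists. Zc3hav1, the gene of an antiviral zinc finger protein (chr6:38353787-38354991), had 3 summits in each WT and 2 in each KO library, with widths of 1197, 1180 and 1197 bp in WT and 1118, 1139 and 1123 bp in KO. The member at Il15, a cytokine gene (chr8:82402174-82403405), likewise had 3 in each WT and 2 in each KO library. Its spacing was 257, 331.5 and 312 bp in WT and 634, 625 and 641 bp in KO (log2 difference 1.09 ± 0.10, SE, n = 3 each, limma, adjusted p = 0.0375), without overlap. At Zc3hav1 spacing was narrower in KO, with 352, 323.5 and 330.5 bp in WT and 209, 208 and 267 bp in KO (limma, adjusted p = 0.259). Fewer summits thus went with wider spacing at Il15 and with narrower spacing at Zc3hav1. Both members had 3 summits only in WT libraries, so they met the rule through WT, and spacing is measured between the same summits.

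The reverse pattern, 2 summits in each WT and 3 in each KO library, was found at Setd2, the gene of a histone H3 methyltransferase (chr9:110531880-110533300), at Zfp771 (chr7:127243818-127245098) and at Mnt, the gene of a repressor that pairs with MAX (chr11:74829865-74830987). All of them had 3 summits only in KO libraries, so they met the rule through KO. Their widths overlapped: at Mnt they were 1088, 1085 and 1075 bp in WT and 1085, 1116 and 1073 bp in KO.

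Spacing was the readout with calls among members. Of 11042 regions with at least 2 summits in an interval in every library, 30 were called (0.272%, limma, adjusted p below 0.05), 26 with wider spacing in KO (0.235%) and 4 with narrower (0.0362%). Members made up 28 of these calls out of 5552 tested, 25 wider and 3 narrower. The rule chose members for their summits, which is what spacing is made of, so this share is a description. Of the 25 with wider spacing, 23 had fewer summits in KO and 2 the same mean number, and all 3 with narrower spacing had more. The log2 difference ranged from 0.39 to 1.17 in the wider ones, with a median of 0.975. Without regard to size, every KO library had wider spacing than every WT library in 553 members (9.96%, against 9.86% of all regions) and narrower in 300 (5.40%, against 5.83%). At an unadjusted limma p below 0.05 the counts were 333 wider (5.998%, against 4.86%) and 160 narrower (2.88%, against 2.92%). The split depended on the libraries. Member calls were 38 wider and 27 narrower without WT replicate 2, 18 and 9 without WT replicate 1, and 16 and 7 without WT replicate 3. Over all regions these were 67 and 38, 27 and 10, and 22 and 7. Member calls were 20 and 3 without KO replicate 1, 34 and 4 without KO replicate 2, and 132 and 39 without KO replicate 3. Over all regions these were 21 and 5, 35 and 8, and 165 and 91. Each time, 5567 to 5790 members and 11203 to 12299 regions were tested. Of the 2236 members multi-summit in all 6 lists, 4 were called wider and 1 narrower, against 26 and 4 of 11042 regions.

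An intergenic member 22437 bp from Rps6ka1, the gene of the kinase RSK1 (chr4:133910234-133911360), had a spacing of 309, 311 and 301.5 bp in WT and 653, 627 and 651 bp in KO. It held 3 summits in each WT and 2 in each KO library, and the log2 difference was 1.07 ± 0.04 (SE, n = 3 each, limma, adjusted p = 0.00341). Its width, 1127, 1092 and 1112 bp in WT and 1070, 1091 and 1103 bp in KO, overlapped.

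The member at Lag3, the gene of an inhibitory receptor of lymphocytes (chr6:124903589-124904818), had 268, 279 and 276.5 bp in WT and 569, 585 and 558 bp in KO (log2 difference 1.06 ± 0.05, SE, limma, adjusted p = 0.00341). A member 31214 bp from Adgre5, which encodes the adhesion receptor CD97 (chr8:83772525-83773414), had 211, 217.5 and 205 bp in WT and 447, 437 and 430 bp in KO, and the adjusted p (limma) was likewise 0.00341. Both held fewer summits in every KO library than in any WT library. The members near Rps6ka1 and Adgre5 and at Lag3 were multi-summit in 3 lists and had 3 or more summits only in WT libraries. They thus met the rule through WT, and spacing is measured between the same summits.

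Narrower in KO was the spacing at Fam83d, a gene of a mitotic spindle protein (chr2:158767681-158768686), with 657, 641 and 647 bp in WT and 316, 311.5 and 310.5 bp in KO. There, 2 summits in each WT library stood against 3 in each KO library (log2 difference −1.05 ± 0.04, SE, n = 3 each, limma, adjusted p = 0.00341). At Atp1b3, which encodes a beta subunit of the sodium pump and whose upstream sequence is printed above (chr9:96363598-96364944), it was 495.5, 502 and 501 bp in WT and 241, 224 and 236 bp in KO, with 3 and 4 summits. The log2 difference was −1.10 ± 0.05 (SE, limma, adjusted p = 0.00341) and the width was 1332, 1329 and 1337 bp in WT and 1322, 1307 and 1329 bp in KO. At Esd, the gene of esterase D (chr14:74731838-74732840), spacing was 410, 401 and 414 bp in WT and 232, 221 and 227 bp in KO (limma, adjusted p = 0.00387). In 5 of these 6 members the summit numbers did not overlap between genotypes, and at Esd, with 3, 3 and 2 in WT and 3, 3 and 4 in KO, they did. The member at Fam83d had 3 summits only in KO libraries and met the rule through KO, while those at Atp1b3 and Esd were multi-summit in 6 and 5 lists.

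Strength, read as the rank of the best interval of a member, did not follow width. The median rank of members was 24909.5, 24414.5 and 26865 in WT and 20021.5, 17114 and 25712 in KO, where a lower number is stronger, and KO replicate 3 overlapped the WT libraries (exact permutation test, p = 0.3). No member of 6673 was called on rank, against 55 of 100017 regions (0.055%, limma, adjusted p below 0.05). At an unadjusted limma p below 0.05, 985 members ranked better in KO (14.8%, against 8.83% of all regions) and 275 worse (4.12%, against 9.48%), and the median log2 gain of members was 0.29. Without KO replicate 3, 1526 of 6662 members were called as better and 267 as worse, against 8331 and 9605 of 94527 regions.

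The member near Tomm7 had rank 14504, 10115 and 15003 in WT and 2559, 2176 and 3880 in KO, a log2 gain of 2.22 ± 0.34 (SE, n = 3 each, limma, adjusted p = 0.0546). It was thus stronger at its best interval while its width was smaller. A member in Crybg2 (chr4:134061402-134062575) ranked 12804, 7770 and 9523 in WT and 1904, 3181 and 2674 in KO (limma, adjusted p = 0.105), at an overlapping summit number. In the other direction, a member 2576 bp from Cish, the gene of a suppressor of cytokine signalling (chr9:107305360-107306505), ranked 5247, 7711 and 5179 in WT and 21548, 16196 and 11240 in KO (limma, adjusted p = 0.225). Intergenic members on chromosome 12 (chr12:23188970-23189988, adjusted p = 0.113), chromosome 5 (chr5:25613664-25615017, 0.219) and chromosome 13 (chr13:85126658-85127453, 0.224) were the others of smallest p (limma). Without KO replicate 3 all 6 of these rank differences passed the limma test, with adjusted p of 0.0103 to 0.0167.

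Among the members with the most summits, that at Gas1, which encodes a Hedgehog co-receptor (chr13:60175603-60177880), held 8 in each WT library and 7, 7 and 8 in KO, and that at App, the amyloid precursor gene (chr16:85172043-85174121), 8 in each WT library and 6, 6 and 7 in KO. At App every KO library was below every WT library. Tsc22d2 (chr3:58414972-58417440) held 7, 8 and 8 in WT and 8, 8 and 7 in KO.

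The member at Irx2, a homeobox gene (chr13:72627455-72629589) held 8, 7 and 7 summits in WT and 7 in each KO library. Sema4c, a semaphorin gene (chr1:36556581-36559000), Dipk2a (chr9:94537020-94539109), Sphk1, the gene of a sphingosine kinase (chr11:116532263-116534568), and Elf2, an ETS factor gene (chr3:51339775-51342184), were also among them, with 6 to 8 summits in every library. None of these 8 members passed the limma test for width, spacing or rank, and their adjusted p for width ranged upward from 0.275 at App.

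Members among the widest on average were those at Tsc22d2 and Sema4c, one on chromosome 1 and one at Usp9x, the gene of a deubiquitinase (chrX:13070514-13072960). The member on chromosome 1 (chr1:24613142-24615609) lies 25220 bp from Col19a1 and contains an annotated pseudogene, Gm10925, with a mitochondrial gene name as synonym. It was among the strongest regions of all, at rank 2, 5 and 2 in WT and 117, 263 and 4 in KO, and its spacing was 669, 471 and 513 bp in WT and 230, 231 and 221 bp in KO (limma, adjusted p = 0.0536). All 6 libraries had 4 summits there.

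Of 21887 protein-coding genes, 5037 (23.0%) had a member within 500 bp of an end, or 37.1% of the 13565 genes with any region of all 6 libraries there. The gene lists below were chosen with earlier results of these data known and are given by their counts. Among the urothelial luminal genes, 5 of 16 had a member. Ocln, the gene of the tight junction protein occludin (chr13:100551310-100553412), held 7, 7 and 6 summits in WT and 6, 7 and 7 in KO. Upk2, a uroplakin gene of the urothelial plaque (chr9:44454202-44455409), held 4 summits in all 6 libraries, over 1205, 1159 and 1201 bp in WT and 1123, 1118 and 1109 bp in KO. Krt19 (chr11:100144937-100146484) held 3, 4 and 4 in WT and 5, 5 and 4 in KO, and Epcam (chr17:87636153-87637408) 3, 4 and 4 in WT and 4 in each KO library.

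Among basal genes, 5 of 11 had a member. Itga6, which encodes the integrin subunit of hemidesmosomes (chr2:71786571-71788153), held 5, 4 and 6 summits in WT and 5, 5 and 6 in KO. Cd44, the hyaluronan receptor gene (chr2:102900558-102901847), held 4, 3 and 4 in WT and 3 in each KO library. The members at Dst (chr1:33906914-33908424), which also holds an end of Bend6, and Krt15 (chr11:100130395-100131477) overlapped between genotypes in summit number as well.

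Of 18 urothelial transcription factor genes, 6 had a member. The member at Pparg, the nuclear receptor of luminal differentiation whose upstream sequence is printed above (chr6:115360722-115362556), held 6 summits in each WT library and 5, 4 and 5 in KO. Its spacing was 275, 285 and 246 bp in WT and 350, 397 and 348.5 bp in KO, and its rank 38943, 28325 and 34885 in WT and 14756, 10622 and 28748 in KO. Summits and spacing did not overlap between genotypes, and neither spacing (log2 difference 0.44 ± 0.09, SE, n = 3 each, limma, adjusted p = 0.253) nor rank (adjusted p = 0.239, limma) passed the test. Sox4 (chr13:28951897-28954004) held 6, 6 and 7 in WT and 7, 7 and 6 in KO, Klf4 (chr4:55532178-55533537) 4, 5 and 4 and 4, 4 and 5, and Sox9 (chr11:112781951-112783109) 4, 3 and 4 and 3 in each KO library.

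Of the 16 genes on the list of immediate early and AP-1 genes, 6 held one. The longest merged region of all members, 2753 bp at Fosb, a gene of a FOS family subunit of AP-1 (chr7:19301551-19304303), covered 2734, 2301 and 2577 bp in WT and 1201, 1160 and 1725 bp in KO. It held 6 summits in each WT library and 4, 4 and 5 in KO, with no overlap in either, and the log2 width difference was −0.92 ± 0.16 (SE, n = 3 each, limma, adjusted p = 0.160). The difference is large, but so was the spread, and it did not pass. The member was multi-summit in 3 lists, and no interval of KO replicates 1 and 2 held neighbouring summits there at the common threshold. Its inclusion thus leaned on the WT lists, in which it was wider. Jun (chr4:95051875-95052971) held 3 and Dusp1, the gene of a MAP kinase phosphatase (chr17:26507901-26509033), 4 summits in all 6 libraries. Atf3 (chr1:191169530-191171404) held 6, 5 and 4 in WT and 5 in each KO library.

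Of the cohesin and CTCF genes, 6 of 15 had a member. The member at Ctcf (chr8:105635965-105637540) held 5 summits in each WT and 4 in each KO library, and that at Pds5a, a cohesin regulator gene (chr5:65697582-65699317), 5, 4 and 6 in WT and 3 in each KO library. Smc3, the gene of a core cohesin subunit (chr19:53599790-53601049), held 3, 3 and 4 in WT and 4 in each KO library, and Mau2, the gene of a loader subunit (chr8:70042070-70043262), 4, 3 and 3 in WT and 3 in each KO library. Summits at Ctcf and Pds5a did not overlap between genotypes, while widths overlapped at Ctcf, with 1362, 1555 and 1371 bp in WT and 1564, 1554 and 1455 bp in KO.

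Genes of the DREAM and MMB complexes, which control cell cycle transcription, had a member in 9 of 19 cases. E2f1 (chr2:154569088-154570454) held 4, 5 and 4 summits in WT and 3 in each KO library over 1109, 1291 and 1113 bp and 1049, 1044 and 1060 bp, without overlap in either. Its limma test for width did not pass (adjusted p = 0.350). The member at E2f4 (chr8:105305322-105306491), shared with Elmo3, held 4 summits in all 6 libraries, that at Lin52 (chr12:84450408-84451802), shared with Aldh6a1, held 5, 5 and 4 in WT and 5, 5 and 3 in KO, and that at Lin9 (chr1:180640542-180642092) 3, 5 and 3 in WT and 5, 4 and 5 in KO. Of 20 G2/M genes, 3 had a member. Among them, the member at Aurka (chr2:172370341-172371277), shared with Cstf1, held 2, 3 and 3 summits in WT and 3 in each KO library, and Top2a (chr11:99023704-99024563), the gene of a topoisomerase, 2, 4 and 3 in WT and 3, 3 and 2 in KO.

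Housekeeping genes had a member in 5 of 14 cases and developmental transcription factor genes in 4 of 20. Polr2a, the gene of the largest RNA polymerase II subunit (chr11:69757908-69759758), held 4 summits in all 6 libraries and Ppia (chr11:6415295-6416484) 3 in all 6. Rplp0, a ribosomal protein gene (chr5:115559154-115560238), held 3, 4 and 4 in WT and 4, 3 and 3 in KO, and Eef1a1 (chr9:78480770-78482364) 3, 3 and 4 in WT and 4, 4 and 3 in KO. Developmental members lay at Sim1 (chr10:50894194-50895405), with 4 in each WT library and 4, 4 and 3 in KO, at Hoxd9 (chr2:74697422-74698492), with 3, 3 and 4 in WT and 3 in each KO library, and at Hoxa11 (chr6:52245327-52246269), with 3 in all 6. In each of these housekeeping and developmental members the summit numbers of the genotypes overlapped.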

How the data were processed

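ATAC-seq peak lists of 3 Stag2-WT and 3 Stag2-KO libraries were analysed, each called on its own library. The deposited fold values (column 7) are ratios over local background, and the deposited −log10 p and −log10 q values belong to each summit; the deposited display score was not used as a measurement. Build mm10 and DiffBind are named per the submitters' processing notes; which aligner and caller were run is not given in the sources used here. Read counts per library were not analysed here. Depth enters only as the lowest background coverage that the deposited fold and −log10 p values of a sample of peaks imply.

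The membership rule and the ranks used the lists as deposited. The same rule gave 6652 members on peaks at a −log10 p of at least 3. For width, summit number and spacing only such peaks were kept, because 1 list starts there. Merged multi-summit regions and the remaining intervals, merged at 1 bp, formed the table of regions. Per library, covered width, summit number, spacing of neighbouring summits within an interval and rank of the best interval (100001 where none of the best 100000 lay in the region) were taken. Log2 width, spacing and rank were tested with limma 3.58.1 (trend, Benjamini-Hochberg adjustment over the whole table, threshold 0.05) in R 4.3.3; a rank difference is positive where KO ranked better. Library medians were set against each other by an exact permutation test, two-sided, in SciPy 1.17.1. The planned limma fit of summit number could not be used, because 845 of its 848 calls had identical whole numbers within each genotype. A further 10 fits, chosen after seeing the data, called 0 to 498 regions, so no region is called on summit number. The limma script was tested on simulated data and the merging was checked against bedtools 2.31.1. Python 3.11.15 with NumPy 2.4.6, pandas 2.3.3 and matplotlib 3.10.9 was used.

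Named regions are the 10 members with the most summits, the 5 widest, the 3 of smallest limma p per direction for width, summit number, spacing and rank, up to 4 per gene list, and 3 on either side of the membership threshold; regions on 1 chromosome are not named, and some regions that this rule picks are not reported here. Names are those of the closest end of a protein-coding gene, up to 50 kb away, in RefSeq on GRCm38.p6. The members and lists were chosen with earlier results of these data known.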

Additional observations from a re-analysis of the deposited data

How the results depend on the processing

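The number of members was 25685 with 2 or more summits per interval, 1865 with 4 or more and 2236 where all 6 lists were required, and 5510 to 6083 when a library was left out. The share at a gene end was 68.4% with a window of 1000 bp and 36.5%, 76.4% and 75.04% under those 3 rules. The share of summits shared between libraries was 70.2% at 25 bp in place of 82.1% at 50 bp. Leaving out a library gave differences of −47.6 to −37.6 bp in width, −0.301 to −0.219 summits, 6.67 to 12.7 bp in spacing, 0.07 to 0.10 in relative log2 width and −1.75 to −0.832 percentage points in the share of multi-summit intervals, and no alternative reversed them.

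Calls by limma (adjusted p below 0.05) depended on the processing. For width, 78 regions and 5 members were called with the 150000 best peaks, 3 regions at a −log10 q of 2, 0 where 2 libraries per genotype sufficed, 1 member with 2 or more summits, and 0 to 2368 regions and 0 to 263 members when a library was left out. For spacing, 49 regions were called where 2 libraries per genotype sufficed, 7, 8 and 5 members with 4 or more summits, 4 lists and 6 lists, and 26 to 256 regions and 23 to 171 members when a library was left out. For rank, 10 regions were called with the 50000 best intervals, 7 where an interval in all 6 rank lists was required, 6 members with 2 or more summits, 1 with 2 lists, and 5 to 17936 regions and 0 to 1793 members when a library was left out; each highest value is without KO replicate 3. The unusable fit of summit number gave 549 regions with the 150000 best peaks, 660, 39, 52 and 30 members with 2 or more summits, 4 or more, 4 lists and 6 lists, and 1280 to 3225 regions and 247 to 505 members when a library was left out. Fits added after seeing the data gave 161 regions and 85 members, 201 and 101, 498 and 214, 7 and 7, and 0 in the other 6. The causes were not tested.

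With the replicate block, 0 regions were called on width, 0 on spacing, members included, 3389 on rank and 201 members on rank; the 6 named spacing members had an adjusted p of 0.148 (limma). Deviations of same-numbered libraries correlated at −0.17, 0.46 and 0.50 for rank and −0.01, 0.21 and 0.15 for width across regions. Those of different-numbered libraries ranged from −0.61 to 0.44 for rank and from −0.30 to 0.15 for width. Whether the numbers pair the libraries cannot be told from these values, and the labels do not say. Depth is known only through background coverage, and summits that a shallower library would miss cannot be told apart from absent ones.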
